A study of Mus musculus with 2 samples.

Results

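The genes described here encode the proteins of the cytosolic and the mitochondrial ribosome. They were chosen by gene symbol: Rpl, Rps or Rplp followed by a number, with Rpsa, for the cytosolic ribosome, and Mrpl or Mrps followed by a number for the mitochondrial ribosome, with no pseudogenes. This gave 162 of the 17134 genes in the count table, 84 cytosolic and 78 mitochondrial, and RefSeq lists all 162 as protein coding. The values come from bulk RNA sequencing of tuft cells, the chemosensory cells of the gut epithelium, sorted from the small intestine of naive mice by the surface proteins EpCAM and Siglec-F. The Spib_KO library came from mice labelled Spibfl/flVillin-cre, and the WT library from mice labelled Spib+Villin-cre. Both genotypes therefore carried Villin-cre, which expresses Cre recombinase throughout the intestinal epithelium and not in tuft cells alone, so the deletion in Spib_KO mice was not limited to tuft cells. There was 1 library per genotype, and the labels do not give how many mice each holds.

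The cytosolic ribosome translates nuclear-encoded mRNAs. Its small subunit reads the mRNA and its large subunit forms the peptide bonds, and most of its proteins are needed in equal copy number. The mitochondrial ribosome is assembled from a separate set of nuclear-encoded proteins that are imported into the organelle, where it translates the few mRNAs of the mitochondrial genome, which code for membrane subunits of the respiratory chain. Many cytosolic ribosomal protein mRNAs begin with a run of C and T bases, the 5' terminal oligopyrimidine (TOP) motif, through which the kinase mTOR and the RNA-binding protein Larp1 control their translation.

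The Spib_KO library held 17228684 reads and the WT library 17925448. Spib, the Ets-family transcription factor that was targeted, had 48 reads in the Spib_KO library and 6266 in the WT library, a log2 ratio of -6.95 (95% interval -7.40 to -6.55). The genes of both sorting markers were close between the libraries, with log2 ratios of -0.06 for Epcam and 0.14 for Siglecf. The 15 tuft cell markers summed to a normalised read count (CPM) of 17853.5 in the Spib_KO library and 18299.5 in the WT library. Their median log2 ratio was 0.10, with 10 of 15 above 0. By the 1.2-fold rule given below, 2 were called lower (Gnat3 at -0.73 and Trpm5 at -0.56) and 3 higher (Rgs13, Gng13 and Sucnr1). These were 13.3% and 20% of the list, near the 14.5% and 15.4% of all measured genes. Every ratio below is Spib_KO over WT on counts scaled with TMM library sizes, and its interval covers counting error only. With no replicate there is no test and no p-value, so a gene was called by size: the bound of its 95% interval nearest to 0 had to lie past a 1.2-fold or a 2-fold difference. In bulk RNA, fewer cells of a type and less RNA per cell cannot be told apart.

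Most cytosolic ribosomal protein mRNAs were slightly lower in the Spib_KO library, 52 of 80 beyond counting error. Of the 84 genes, 80 were measured, meaning that either library held at least 30 reads of the gene at a CPM of no less than 5. Their median log2 ratio was -0.14, which is 9.05% lower in the Spib_KO library, with quartiles of -0.20 and -0.02. The ratio was below 0 for 63 of the 80 genes (78.8%), against 48.8% of all 10707 measured genes and 49.4% of the 2275 genes with a CPM of 100 or more. The whole counting interval lay below 0 for 52 genes (65.0%), above 0 for 5, and held 0 for 23, against 33.8% of all measured genes below and 35% above. Summed over the group, the mRNAs made up 2.26% of the reads in the Spib_KO library and 2.46% in the WT library.

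The size of each difference was small. All 80 measured cytosolic genes lay within 1.5-fold of equality, as did 79.5% of all measured genes and 90.6% of genes with a CPM of 100 or more. The bound rule at 1.2-fold called 3 genes lower (Rps15a, Rps2 and Rpl18) and 1 higher (Rpl30), or 3.75% and 1.25% of the group, while 14.5% of all measured genes were called lower and 15.4% higher, and 12.8% and 13.6% of genes with a CPM of 100 or more. By the point estimate alone 8 cytosolic genes were at least 1.2-fold lower and 1 higher, against 24.7% of all measured genes lower and 26.1% higher. At 2-fold no cytosolic gene was called, against 2.18% of all measured genes lower and 2.33% higher. The standard deviation of the log2 ratio across the group was 0.14, against 0.78 over all measured genes and 0.49 over genes with a CPM of 100 or more.

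Mitochondrial ribosomal protein mRNAs, all 78 of them measured, were centred on equality. Their median log2 ratio was 0.02, or 1.17% higher in the Spib_KO library, with quartiles of -0.09 and 0.21. The ratio was below 0 for 37 genes (47.4%) and above 0 for 41, close to the 48.8% and 51.2% of all measured genes. The bound rule at 1.2-fold called 1 gene lower (Mrps2) and 4 higher (Mrps16, Mrpl58, Mrpl55 and Mrpl42), or 1.28% and 5.13% of the group, again below the shares over all measured genes. None was called at 2-fold. The interval lay wholly below 0 for 16 genes (20.5%) and wholly above 0 for 27 (34.6%). Over all measured genes the shares were 33.8% below and 35.0% above, so only the share below 0 differed.

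**Figure D1:**
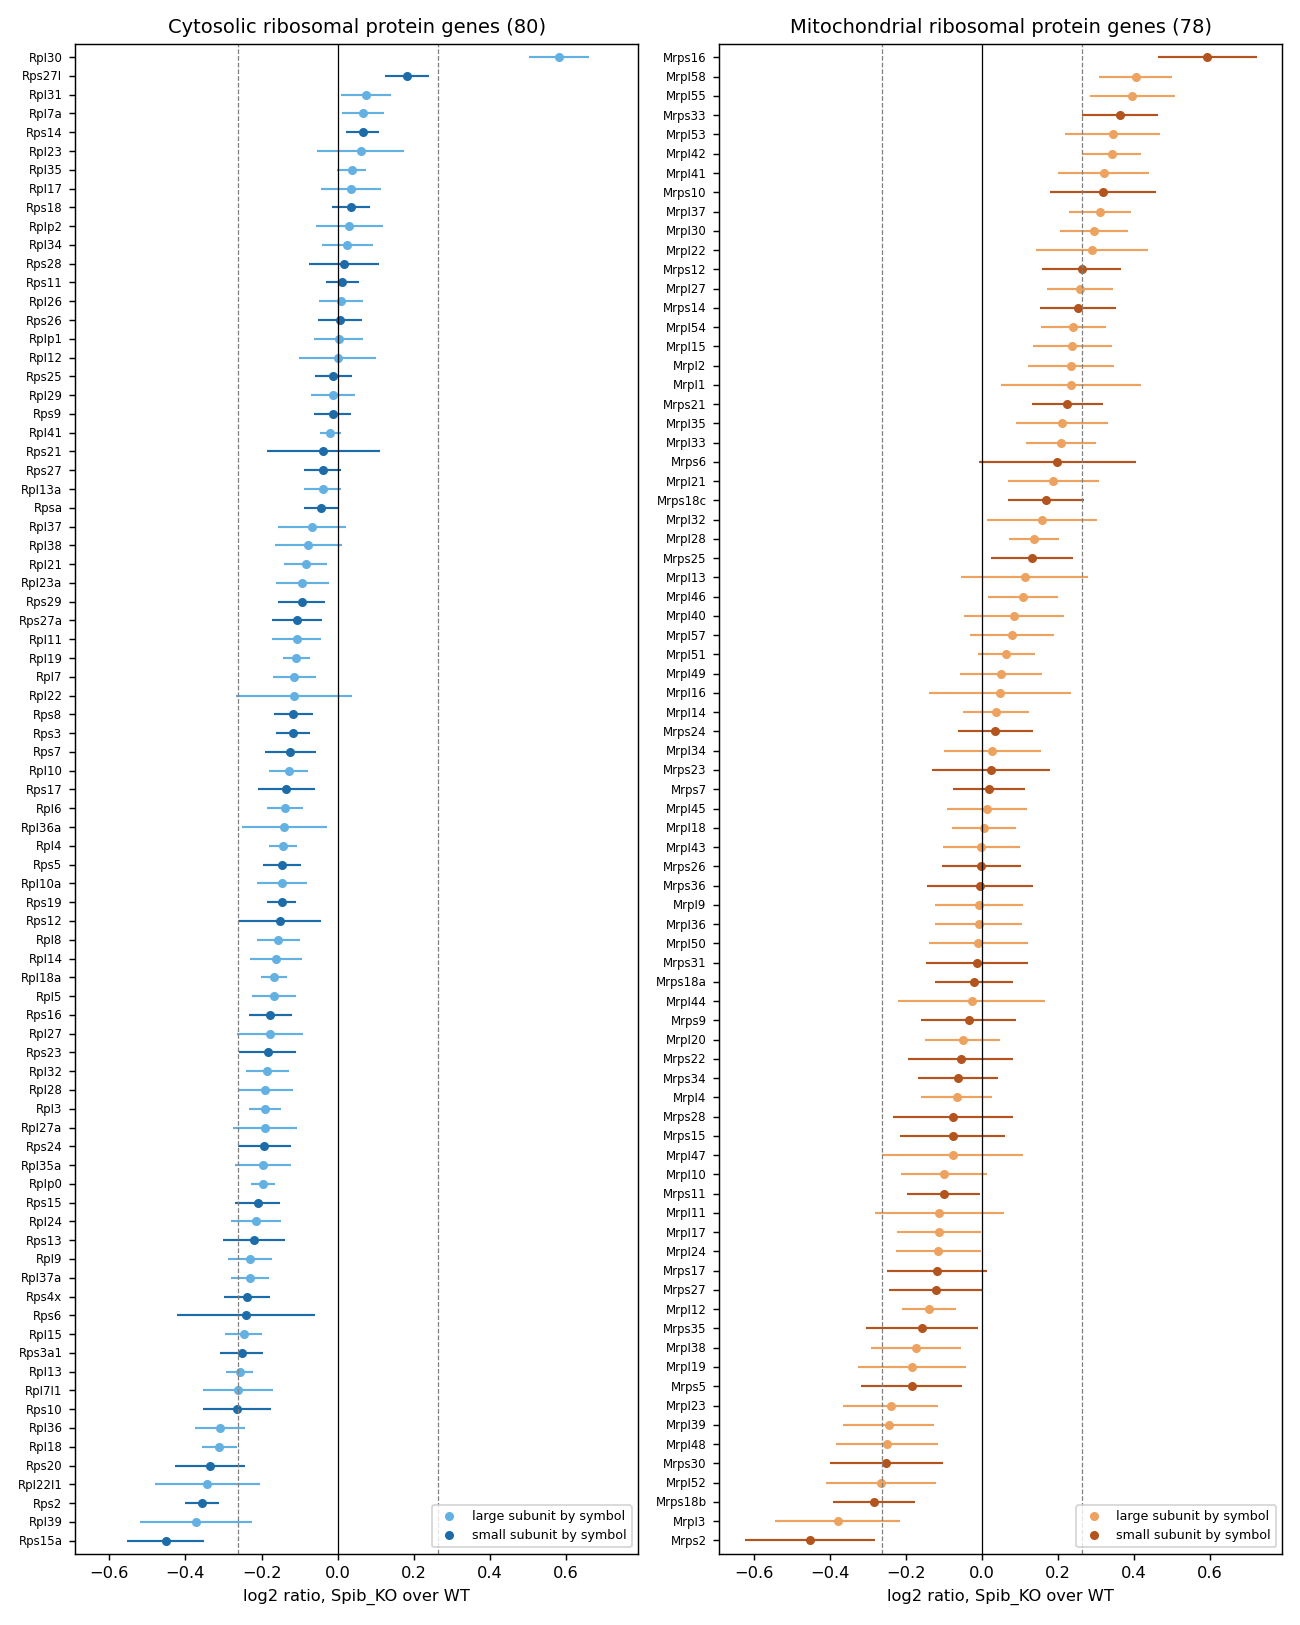
Log2 ratio of Spib_KO over WT for each measured ribosomal protein gene, 80 cytosolic (left) and 78 mitochondrial (right), ordered by ratio; points are the ratios of TMM-scaled counts, lines the 95% counting intervals, and dashed lines mark 1.2-fold. Most cytosolic genes sit left of 0 in a narrow band around the median of -0.14, with Rpl30 alone at 0.58, while the mitochondrial genes spread to both sides of 0.

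**Figure D2:**
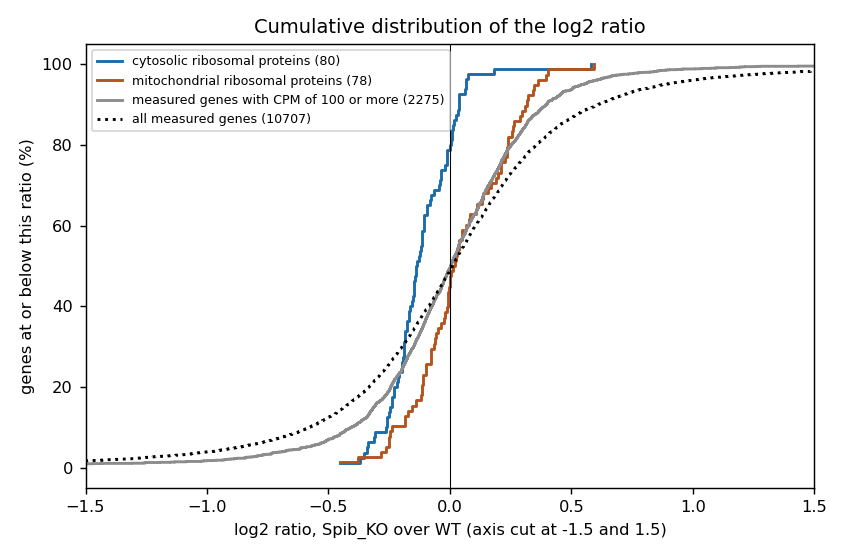
Cumulative percentage of genes at or below each log2 ratio of Spib_KO over WT, for the cytosolic and mitochondrial genes, the 2275 genes with a CPM of 100 or more and all 10707 measured genes. The cytosolic curve is the steepest and is shifted left, with 78.8% of its genes below 0, while the mitochondrial curve crosses 0 at 47.4%.

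Both cytosolic subunits showed the same shift. The 32 small-subunit genes had a median log2 ratio of -0.13, with 26 below 0, and the 48 measured large-subunit genes a median of -0.14, with 37 below 0. Proteins of bacterial ancestry had much the same median as the rest: the 33 proteins with a bacterial counterpart had a median of -0.13, and the 44 measured proteins without one, paralogs aside, a median of -0.14. The lowest ratio belonged to Rps15a, a core small-subunit protein with a bacterial counterpart (chr7:118104374-118116147), which had 1352 reads in the Spib_KO library and 1940 in the WT library. Its log2 ratio was -0.45 (-0.55 to -0.35). Rps2, which lines the channel where mRNA enters the small subunit (chr17:24718121-24721927), had 7150 reads in the Spib_KO library and 9596 in the WT library, a log2 ratio of -0.36 (-0.40 to -0.31). Both counts are large enough that the interval stays well clear of 0.

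Rpl18, a large-subunit protein found in eukaryotes and archaea (chr7:45715467-45720835), had 6701 reads in the Spib_KO library and 8722 in the WT library, a log2 ratio of -0.31 (-0.36 to -0.27). Its bound nearest to 0, -0.2656, only just passed the 1.2-fold cutoff, which is 0.2630 in size. This gene overlaps Sphk2, whose own log2 ratio was -0.16, and the library chemistry does not keep strand. Rpl39, a small protein at the peptide exit tunnel, had 664 reads in the Spib_KO library and 901 in the WT library, a log2 ratio of -0.37. Rps20, a small-subunit protein with a bacterial counterpart, had 1700 reads in the Spib_KO library and 2250 in the WT library, a log2 ratio of -0.34. Rpl39 and Rps20 were as far from equality as Rps2 and Rpl18, but their intervals reached within 1.2-fold, so neither was called. Rpl36, the next lowest gene, had a log2 ratio of -0.31.

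The one cytosolic gene called higher was Rpl30, a large-subunit protein whose yeast counterpart binds its own transcript (chr15:34440505-34443276). It had 3212 reads in the Spib_KO library and 2250 in the WT library, a log2 ratio of 0.58 (0.50 to 0.66). Its deposited TPM, which is a level per transcript length, was 693 TPM in the Spib_KO library and 498 TPM in the WT library. Rpl30 stood far from the rest of the group, since the next highest gene, Rps27l, had a log2 ratio of 0.18. The deposited counts of Rpl30 are not whole numbers, as estimated counts are where reads match more than one gene or transcript, so its value is less certain than those of genes with whole counts. The 20 measured cytosolic genes with such counts had a median of -0.08 and the 60 with whole counts a median of -0.15. Beyond Rps27l, the highest ratios were 0.08 for Rpl31, which overlaps Tbc1d8, 0.07 for both Rpl7a and Rps14, and 0.06 for Rpl23.

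Levels per length were ordered much alike in both libraries. Rpl41, which encodes the shortest ribosomal protein, was the most abundant at 6059 TPM in the Spib_KO library and 6664 TPM in the WT library. Rps27 followed with 3192 TPM in the Spib_KO library and 3727 TPM in the WT library, Rpl35 with 3196 TPM in Spib_KO and 3379 TPM in WT, and Rps19 with 2108 TPM in Spib_KO and 2477 TPM in WT. Rps27 and Rpl35 lay so close that they traded places between the libraries. The median cytosolic gene had 588 TPM in the Spib_KO library and 628 TPM in the WT library, and 71 of the 80 genes lay within 4-fold of the median in each. Across the 80 genes log2 TPM in one library tracked the other with a Pearson correlation of 0.996, a description of 2 libraries over genes that differ widely in level.

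The low end of that range holds genes with long implied transcripts. Rps15a, at 20.03 TPM in the Spib_KO library and 27.7 TPM in the WT library, was the least abundant measured cytosolic gene in the Spib_KO library, and the length implied by its deposited values was 4932 bases in Spib_KO and 4915 bases in WT, against a group median of 509 bases. Rps20, with 38.3 TPM in the Spib_KO library and 48.9 TPM in the WT library, had an implied length of 3244 bases in Spib_KO and 3226 bases in WT. Rps6, the substrate of the S6 kinases and also at the low end, had only 448 reads in the Spib_KO library and 555 in the WT library. A row named Rps6-ps4, outside the symbol rule and picked out after its values were seen, had 6683 reads in the Spib_KO library and 7466 in the WT library, a log2 ratio of -0.09. The sources used here do not say how reads were divided between such near-identical copies, so the values of Rps6 are uncertain.

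**Figure D3:**
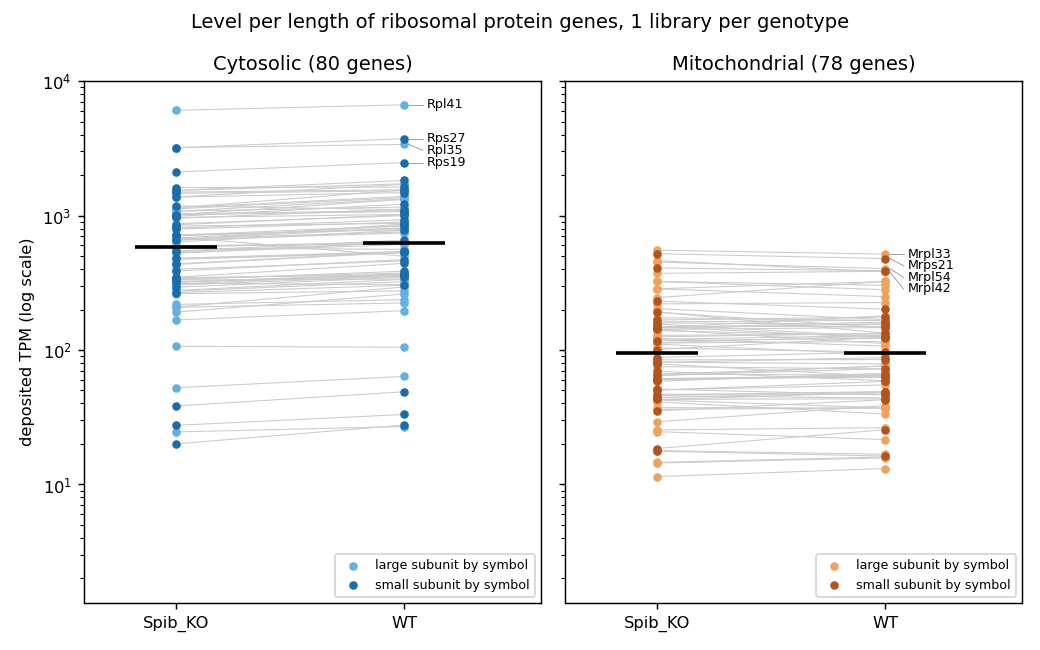
Deposited TPM (log axis) of each measured cytosolic (left) and mitochondrial (right) ribosomal protein gene in the Spib_KO and WT libraries; grey lines join the same gene, black bars are group medians, and the 4 most abundant genes of each group are named. The cytosolic median is 588 TPM in Spib_KO and 628 TPM in WT, and the mitochondrial median is 94.3 TPM in Spib_KO and 94.6 TPM in WT.

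The acidic stalk recruits translation factors to the large subunit and is built from Rplp0 and the paired Rplp1 and Rplp2. Rplp0, the base of the stalk, had 953 TPM in the Spib_KO library and 1116 TPM in the WT library, with a log2 ratio of counts of -0.20. Rplp1 had 1075 TPM in Spib_KO and 1159 TPM in WT, with a log2 ratio of counts of 0.00, and Rplp2 had 587 TPM in Spib_KO and 623 TPM in WT, with a log2 ratio of counts of 0.03. The base of the stalk was thus lower with the rest of the group, and the counts of both arm proteins were equal within counting error.

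Several cytosolic proteins have a paralog that can take their place in the ribosome. Rpl22l1 supplied most of its pair with Rpl22, at 88.6% of their summed TPM in the Spib_KO library and 90.6% in the WT library. Rpl22l1 itself had 746 reads in the Spib_KO library and 992 in the WT library, a log2 ratio of -0.34, and Rpl22 had a log2 ratio of -0.11. Rps27l made up 27.0% of its pair with Rps27 in the Spib_KO library and 22.9% in the WT library. This was the pair in which the shares differed most: Rps27l, which p53 is known to induce, had 1181 TPM in the Spib_KO library and 1105 TPM in the WT library, while Rps27 had a log2 ratio of counts of -0.04. Rpl7l1 made up 9.98% of its pair with Rpl7 in the Spib_KO library and 10.8% in the WT library. Rpl36al, whose symbol falls outside the rule, made up 78.8% of its pair with Rpl36a in the Spib_KO library and 77.1% in the WT library.

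The 4 cytosolic genes that were not measured are all copies of other members. Rpl3l, a muscle paralog of Rpl3, had 0 reads in the Spib_KO library and 2 in the WT library. Rpl39l and Rpl10l, both known from the male germ line, were as scarce, with 0 reads in Spib_KO and 1 in WT for Rpl39l, and 4 reads in Spib_KO and 1 in WT for Rpl10l. Rpl32l had 34 reads in the Spib_KO library and 42 in the WT library, and it lies within the span of Map7. Tuft cells of both genotypes therefore showed next to none of the tissue-restricted paralogs at this depth.

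Promoter sequence was compared over the 133 members that the RefSeq table (GRCm38.p6) holds, 64 cytosolic and 69 mitochondrial. Each promoter ran from 250 bases before to 50 bases after the start site, and motifs were searched on both strands. Spi-B and many other Ets-family factors bind sequences built around GGAA. The Ets-type motif CCGGAAG was present in 39.1% of the cytosolic and 36.2% of the mitochondrial promoters, against 14.6% of the 13622 promoters of genes in the count table and 1741 of the 8702 promoters of measured genes. The purine-rich motif GAGGAAG, of the type that PU.1 and Spi-B bind, was present in 18.8% of the cytosolic and 11.6% of the mitochondrial promoters, against 13.2% of all. The YY1-type motif AAGATGG was present in 14.1% of the cytosolic and 18.8% of the mitochondrial promoters, against 6.53% of all. A run of 5 or more C or T bases directly at the start site, as in a TOP mRNA, was annotated for 16 of the 64 cytosolic and 1.45% of the mitochondrial genes, against 4.10% of all.

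The start sites of the 6 members named here with such a run are shown as 40 bases on the gene's strand, 20 before and 20 from the start site on, with the run of C or T in capitals, because this is the feature the cytosolic and mitochondrial genes share least. They are Rps15a at chr7:118116128-118116167 on the minus strand, Rps27 at chr3:90213629-90213668 on the minus strand, Rplp2 at chr7:141447631-141447670 on the plus strand, Rpl35 at chr2:39005112-39005151 on the minus strand, Rpl7a at chr2:26910787-26910826 on the plus strand, and Rps6 at chr4:86857348-86857387 on the minus strand.
Rps15a: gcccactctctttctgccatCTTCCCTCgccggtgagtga
Rps27: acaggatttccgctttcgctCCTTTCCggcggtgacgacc
Rplp2: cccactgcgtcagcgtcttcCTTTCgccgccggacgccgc
Rpl35: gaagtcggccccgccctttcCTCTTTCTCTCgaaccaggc
Rpl7a: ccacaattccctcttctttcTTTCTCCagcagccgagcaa
Rps6: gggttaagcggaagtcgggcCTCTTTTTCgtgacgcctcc
The log2 ratios of these 6 genes ranged from -0.45 for Rps15a to 0.07 for Rpl7a. The 15 measured cytosolic genes with such a run had a median of -0.16 and the 45 without one a median of -0.14.

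The Ets-type motif is shown for 3 cytosolic and 5 mitochondrial members named here, as 80 bases on the gene's strand, from 60 before the start site to 20 after it, with CCGGAAG or its reverse complement in capitals. They are Rpl41 at chr10:128549149-128549228 on the minus strand, Rpl31 at chr1:39367791-39367870 on the plus strand, Rps27l at chr9:66946026-66946105 on the plus strand, Mrpl3 at chr9:105053208-105053287 on the plus strand, Mrpl52 at chr14:54426849-54426928 on the plus strand, Mrpl33 at chr5:31613891-31613970 on the plus strand, Mrpl53 at chr6:83109048-83109127 on the plus strand, and Mrpl58 at chr11:115403692-115403771 on the plus strand.
Rpl41: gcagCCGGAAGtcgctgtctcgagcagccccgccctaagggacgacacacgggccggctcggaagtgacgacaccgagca
Rpl31: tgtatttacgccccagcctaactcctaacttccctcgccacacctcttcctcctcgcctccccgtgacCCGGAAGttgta
Rps27l: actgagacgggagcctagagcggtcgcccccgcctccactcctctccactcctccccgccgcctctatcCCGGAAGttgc
Mrpl3: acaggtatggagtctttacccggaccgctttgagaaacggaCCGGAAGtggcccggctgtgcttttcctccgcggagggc
Mrpl52: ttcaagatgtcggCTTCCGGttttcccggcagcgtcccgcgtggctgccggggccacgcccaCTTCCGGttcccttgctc
Mrpl33: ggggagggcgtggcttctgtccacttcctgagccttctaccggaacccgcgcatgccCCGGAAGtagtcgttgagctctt
Mrpl53: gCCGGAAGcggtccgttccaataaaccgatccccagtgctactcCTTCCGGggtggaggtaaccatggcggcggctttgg
Mrpl58: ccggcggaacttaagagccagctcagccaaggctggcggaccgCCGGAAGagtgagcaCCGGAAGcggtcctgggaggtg
Of the mitochondrial genes shown, Mrpl3 and Mrpl52 were among the 6 lowest and Mrpl53 and Mrpl58 among the 6 highest. The genes shown were picked for holding the motif, so its presence in them says nothing about their ratios. The 24 measured cytosolic genes with the motif had a median log2 ratio of -0.07 and the 36 without it a median of -0.17. The 25 mitochondrial genes with the motif had a median of 0.06 and the 44 without it a median of 0.00, and over all measured genes with a listed promoter both medians were near 0 (0.01 with the motif and 0.02 without it). A match of letters does not show that a factor is bound there.

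Among mitochondrial ribosomal proteins, the lowest ratio belonged to Mrps2, a small-subunit protein with a bacterial counterpart (chr2:28465951-28471177). It had 475 reads in the Spib_KO library and 681 in the WT library, a log2 ratio of -0.45 (-0.62 to -0.28), and this call was lost when the WT library was thinned to the depth of the Spib_KO library. Mrpl3, a large-subunit protein close to the peptidyl transferase centre, had 530 reads in the Spib_KO library and 723 in the WT library, a log2 ratio of -0.38 (-0.54 to -0.22). The remaining genes of the 6 lowest were closer to equality and not called: Mrps18b at -0.28, Mrpl52 at -0.26, Mrps30 at -0.25, and Mrpl48 at -0.25, which overlaps Rab6a. Mrps30 is named for the small subunit, but structures place its protein in the large one.

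At the other end, Mrps16, a small-subunit protein of bacterial descent (chr14:20391222-20393634), had 1187 reads in the Spib_KO library and 825 in the WT library, a log2 ratio of 0.59 (0.46 to 0.72). It was the only mitochondrial member beyond 1.5-fold. Mrpl58, a large-subunit protein with peptidyl-tRNA hydrolase activity that frees stalled ribosomes (chr11:115403724-115412674), had 2012 reads in the Spib_KO library and 1594 in the WT library, a log2 ratio of 0.40 (0.31 to 0.50). Mrpl55, a large-subunit protein (chr11:59202486-59206138), had 1463 reads in the Spib_KO library and 1166 in the WT library, a log2 ratio of 0.40 (0.28 to 0.51). Mrpl42, which was also among the 4 most abundant (chr10:95480805-95501949), had 2962 reads in the Spib_KO library and 2452 in the WT library, a log2 ratio of 0.34 (0.26 to 0.42). Its lower bound of 0.2636 only just passed the 1.2-fold cutoff of 0.2630. The genes called higher thus came from both subunits. Mrps33 at 0.36 and Mrpl53 at 0.34 missed the rule by their interval, and Mrpl53 overlaps Ccdc142, which had a log2 ratio of -1.19.

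The mitochondrial group as a whole was well below the cytosolic one in level. Its median gene had 94.3 TPM in the Spib_KO library and 94.6 TPM in the WT library, and its mRNAs summed to 0.606% of reads in the Spib_KO library and 0.581% in the WT library. The most abundant were Mrpl33, with 553 TPM in the Spib_KO library and 516 TPM in the WT library, and Mrps21, with 520 TPM in Spib_KO and 479 TPM in WT. Mrpl42 followed with 463 TPM in Spib_KO and 381 TPM in WT, and Mrpl54 with 451 TPM in Spib_KO and 403 TPM in WT. All 4 were higher in the Spib_KO library. The 17 mitochondrial genes whose mean CPM over both libraries was 100 or more had a median log2 ratio of 0.14, a filter added after the data were seen. The 19 genes with that CPM in either library had a median of 0.21, but such a filter also admits genes through the library in which they are high. Split by symbol, the medians were -0.01 for the 29 Mrps genes and 0.05 for the 49 Mrpl genes.

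Other parts of the translation apparatus showed a mixed picture. Of 9 measured ribosomal components outside the symbol rule, 1 was called higher and none lower, with a median log2 ratio of -0.02, where 14.5% of all measured genes were called lower and 15.4% higher. Fau, which encodes a small-subunit protein fused to a ubiquitin-like peptide, was both the lowest and the most abundant of them, with 2226 TPM in the Spib_KO library and 2846 TPM in the WT library and a log2 ratio of counts of -0.26. Gadd45gip1, a mitochondrial large-subunit component, was the highest at 0.38. The 19 translation factors and related genes with TOP mRNAs had a median of -0.10, with 13 below 0, 2 called lower (10.5%) and none higher. Btf3, a subunit of the nascent polypeptide-associated complex, was the lowest at -0.45, and Nap1l1 the highest at 0.19. Eef1a1, the elongation factor that delivers aminoacyl-tRNA, had 1069 TPM in the Spib_KO library and 1405 TPM in the WT library and a log2 ratio of counts of -0.37.

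Genes for ribosome assembly and its control spread more widely than the ribosomal proteins, but less than all measured genes. The standard deviation was 0.38 for biogenesis genes and 0.40 for regulators, against 0.14 for cytosolic members, 0.20 for mitochondrial members and 0.78 over all measured genes. Median CPM in Spib_KO was 38.6 for biogenesis genes, 35.5 for regulators and 245 for cytosolic members, so counting error was larger in these lists. Of 35 measured ribosome biogenesis genes, 5 were called lower (14.3%) and 3 higher (8.57%), with a median of -0.16, against 14.5% lower and 15.4% higher among all measured genes. Nol6, a small-subunit processome protein, was the lowest at -0.90, Utp20 of the same complex was the highest at 0.93, and Eif6, which keeps immature large subunits from joining, was the most abundant at 0.13. Of 13 measured regulators of ribosomal protein synthesis, 4 were called lower (30.8%, against the same 14.5%) and 1 higher (7.69%, against 15.4%), with a median of -0.22. The lowest was Rptor at -0.86, a subunit of the mTOR complex that controls TOP mRNAs, and the highest was Rps6kb1 at 0.43, an S6 kinase, while its relative Rps6kb2 had a log2 ratio of -0.56. Of 26 mitochondrial translation genes, 3 were called lower (11.5%) and 2 higher (7.69%), neither share above that of all measured genes, with a median of -0.06, from Mterf4 at -1.24, a mitochondrial ribosome assembly factor, to Mtfmt at 0.51, which formylates the initiator tRNA. Slirp, which stabilises mitochondrial mRNAs, was the most abundant of this list at 0.12.

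**Figure D4:**
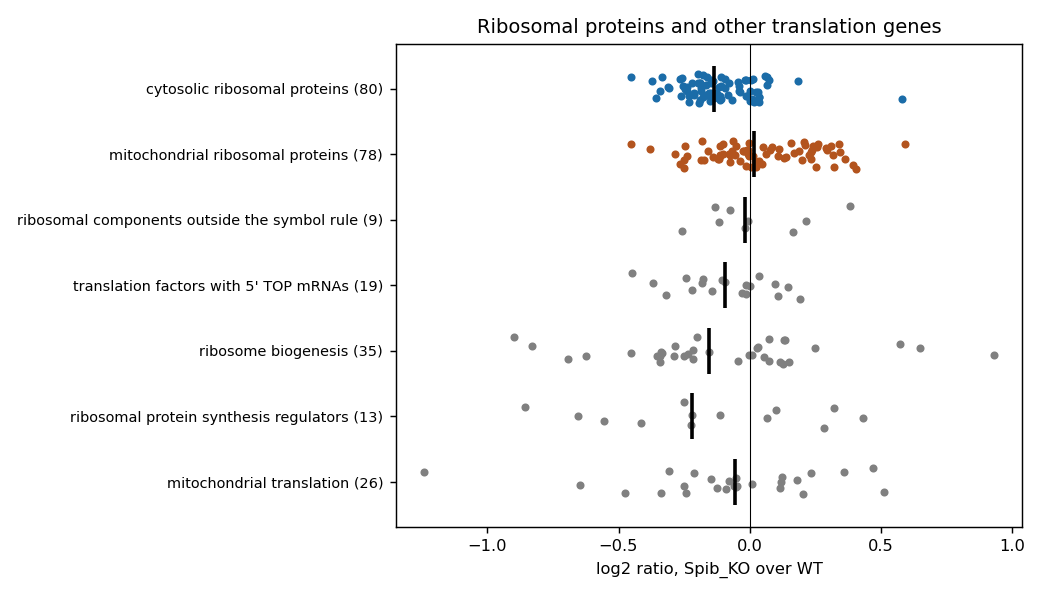
Log2 ratio of Spib_KO over WT for each measured gene of the cytosolic and mitochondrial ribosomal proteins and of 5 lists of other translation genes; each point is 1 gene, spread vertically for legibility, and black bars are medians. The cytosolic ribosomal proteins form the tightest cloud left of 0, with a median of -0.14, whereas the ribosome biogenesis list runs from -0.90 to 0.93.

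Markers of several other cell types were much lower in the Spib_KO library, while stem cell markers had a median near equality. The 9 Paneth cell markers summed to 986 CPM in the Spib_KO library and 2582 CPM in the WT library. Of these, 8 were called at least 2-fold lower, against 2.18% of all measured genes, while Ang4 was called at least 1.2-fold higher (log2 ratio 0.75). The 7 goblet cell markers summed to 1334 CPM in the Spib_KO library and 2126 CPM in the WT library. Of these, 3 were called at least 2-fold lower, against the same 2.18%, while Clca1 was called at least 1.2-fold higher (log2 ratio 0.68). The 7 enteroendocrine markers, 6 of them measured, summed to 33.2 CPM in Spib_KO and 134 CPM in WT, with Gcg and Tph1 at 0 reads in the Spib_KO library, and the 9 T cell markers, 4 of them measured, to 6.47 CPM in Spib_KO and 54.6 CPM in WT. The 12 stem and transit-amplifying markers, 11 of them measured, summed to 1587 CPM in the Spib_KO library and 1836 CPM in the WT library, with a median log2 ratio of 0.00 over the measured genes. Of these, 2 were called at least 1.2-fold lower (18.2%, against 14.5% of all measured genes) and none higher (against 15.4%). The 11 enterocyte markers summed to 16462 CPM in Spib_KO and 14650.4 CPM in WT, but with a median log2 ratio of -0.43. Fabp1 made up most of that sum, with 10611 CPM in Spib_KO and 6968 CPM in WT, and was the 1 marker called at least 1.2-fold higher. By the same rule 7 were called lower (63.6%, against 14.5% of all measured genes). The part of these cells in the ribosomal protein values was not tested.

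The size of the cytosolic difference depended on whether length entered the value. In deposited TPM the median cytosolic log2 difference was -0.20, on the log2(TPM + 1) scale, with 75 of 80 genes below 0, against -0.14 in counts. Over all measured genes the TPM median was -0.01, with 51.5% of genes below 0. The length implied by the deposited values was longer in the Spib_KO library by a median of 18.3 bases over both groups' genes, so the same count gave a lower TPM there, and most of all for short genes. For cytosolic genes under 250 bases the implied length was 1.09 times as long in Spib_KO as in WT, and the median log2 ratio of their 12 genes was -0.03 in counts and -0.16 in TPM. In this length range the 69 measured genes outside both groups had lower medians, -0.32 in counts and -0.43 in TPM. For the 12 cytosolic genes of 1000 to 2000 bases the median was -0.15 in counts and -0.19 in TPM. Genes outside both groups had medians of 0.02 in counts and -0.004 in TPM at that length. In every length class above 250 bases the cytosolic median was below that of genes outside both groups. Between the cytosolic and mitochondrial groups the order did not change with the unit, since the mitochondrial median was 0.02 in counts and -0.03 in TPM.

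**Figure D5:**
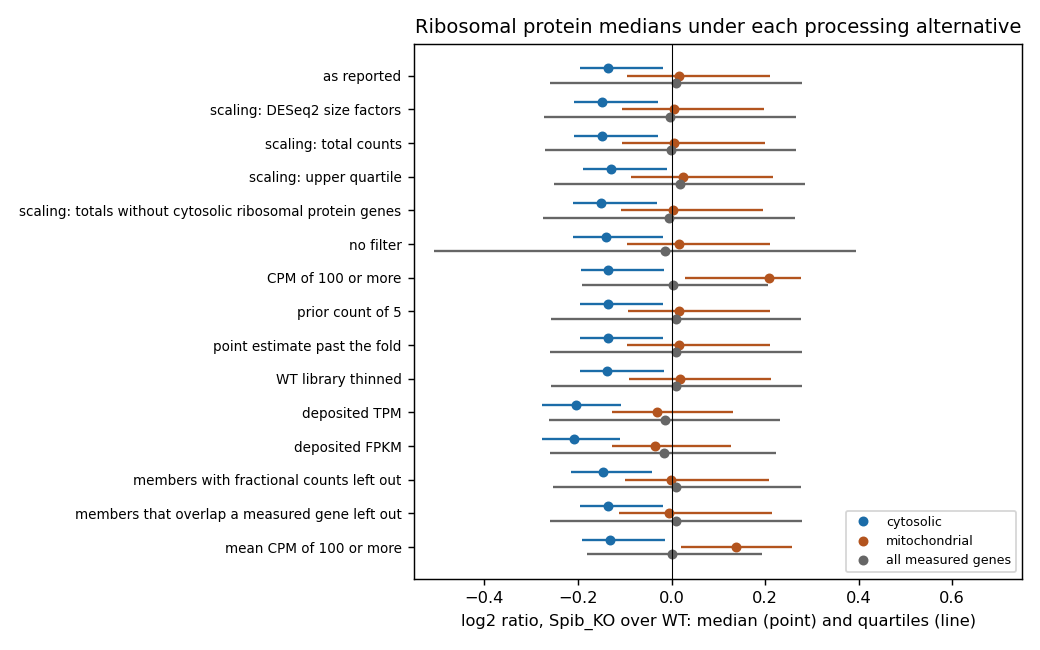
Median (point) and quartiles (line) of the log2 ratio of Spib_KO over WT for cytosolic, mitochondrial and all measured genes under each processing alternative. The cytosolic median lies below 0 in all of them, between -0.13 and -0.21, and the mitochondrial median lies near 0 except where only genes of at least 100 CPM are kept, which gives 0.21 with that CPM in either library and 0.14 with it as the mean of both.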

How the data were processed

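Bulk RNA was sequenced from 1 Spib_KO and 1 WT library of sorted tuft cells. Per the labels' protocols, transposase-made libraries followed cDNA amplification by SMART-SeqII. HISAT, Bowtie2 2.2.3 and mm10 are named in the submitters' processing notes; for the counting program and its annotation nothing is stated there. The authors deposited, per the file headers, an expected count with FPKM and TPM for each gene and library. The deposited counts are not whole for 18.6% of genes in Spib_KO and 19.0% in WT and were rounded.

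Counts were scaled by TMM (edgeR 4.0.16, R 4.3.3) to effective totals of 17160543 reads for Spib_KO and 17996627 for WT. Log2 ratios used a prior count of 0.5, and 95% intervals were exact conditional binomial (Clopper-Pearson). Reads carry no molecular identifiers, so intervals cover counting error only. The calculation was tested on simulated data. Scaling by DESeq2 1.42.0 size factors, total counts and upper quartiles, other filters, a prior count of 5, thinning, TPM, FPKM and the leaving out of members with fractional counts or of members overlapping another measured gene were alternatives; the last was added after the data were seen, as were a filter on the mean CPM and the use of every listed promoter. Python 3.11.15, numpy 2.4.6, scipy 1.17.1, pandas 2.3.3 and matplotlib 3.10.9 were used. Gene positions and promoters came from RefSeq (GRCm38.p6).

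The members and all gene lists were chosen with earlier results of these data known. Named genes were, in each group, the 6 highest and 6 lowest log2 ratios and the 4 highest TPM, with the paralog pairs, the stalk, unmeasured members, the check genes, and the highest, lowest and most abundant gene of each other list. Genes overlapping a member and single cell type markers were named after their values were seen. Implied length is the length at which the deposited count and the total give the deposited FPKM.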

Additional observations from a re-analysis of the deposited data

How the results depend on the processing

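Over the 14 alternatives no called gene changed sign, no member was called at 2-fold, and the cytosolic median stayed below 0. The cytosolic median, -0.14 as reported, was -0.20 in deposited TPM and -0.21 in FPKM. The count of cytosolic genes at least 1.2-fold lower, 3 as reported, was 2 under upper-quartile scaling. It was also 2 without members that overlap another measured gene, and at a mean CPM of 100 or more. The count was 8 by the point estimate, 23 in TPM and 23 in FPKM. As shares of the group these were 10% by the point estimate, 28.7% in TPM and 28.7% in FPKM. The shares of all measured genes were 24.7% by the point estimate, 24.9% in TPM and 24.6% in FPKM. The cytosolic share was thus below that of all measured genes in counts, but above it in TPM and FPKM. The count of cytosolic genes higher, 1 as reported, was 0 without members with fractional counts, since Rpl30 is one of them. The mitochondrial median, 0.02 as reported, was 0.21 among the 19 members with a CPM of 100 or more in either library, 0.14 among the 17 with a mean CPM of 100 or more, and it was -0.03 in TPM, -0.04 in FPKM and -0.01 without members that overlap another measured gene. Mitochondrial genes at least 1.2-fold lower, 1 as reported, numbered 0 at a CPM of 100 or more in either library or as the mean, 4 by the point estimate, 0 with the WT library thinned, and 6 in both TPM and FPKM. Their share was 5.13% by the point estimate and 7.69% in both TPM and FPKM, below the shares of all measured genes lower. Mitochondrial genes at least 1.2-fold higher, 4 as reported, numbered 3 (3.85%) with DESeq2 size factors, total counts, or totals without cytosolic ribosomal protein genes. With upper-quartile scaling or the WT library thinned there were 5 (6.41%). All these shares were below those of all measured genes. Such genes numbered 2 at a CPM of 100 or more in either library or as the mean, 11 by the point estimate, and 9 in both TPM and FPKM. By the point estimate, TPM and FPKM these were 14.1%, 11.5% and 11.5% of the group, against 26.1%, 22.6% and 22.0% of all measured genes. TPM and FPKM have no counting interval, so their counts rest on the point estimate by construction. Of 786 values of 61 single genes, 741 stayed within the counting interval, and the 45 outside it all came from TPM or FPKM. Much of this was fixed beforehand. Filters, the leaving out of members and the point-estimate rule do not change a gene's ratio, and each rescaling moves all ratios by 1 small amount. The share within the interval therefore says little about how firm single values are.

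No paired analysis was possible because each genotype has 1 library. For the same reason no library was left out in turn, and animal-to-animal spread is unknown. A shift of 9.05% in the group median has no replicate spread to be set against. Counts of 448 reads or more for every measured cytosolic gene in Spib_KO keep the counting intervals narrow, but amplified reads are not independent molecules.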
